A study of Mus musculus with 5 samples.

Results

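Mucosal defense and inflammation genes were followed through the epithelium of mouse colonic tumors during chemotherapy. The 10 genes, Reg3b, Reg3g, Lcn2, Saa1, Saa3, Dmbt1, Pigr, Duox2, Duoxa2 and Ltf, were taken by name out of 22146 genes in the count tables, and all 10 had counts in each of the 4 tumor libraries. Cells with at least 500 detected genes and at most 15% mitochondrial counts were kept, which gave 7396 tumor cells and 8491 cells in all.

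The tumors were raised in wildtype mice with azoxymethane (AOM), a carcinogen given at 10 mg/kg in 2 injections, and dextran sodium sulfate (DSS), a colitis-causing polymer given at 2% in drinking water. All 4 tumor libraries came from mice that had also received irinotecan and 5-fluorouracil (5FU), 50 mg/kg of each. The study's treatment ran in 3 cycles, and the mice were C57BL/6J or mixed C57BL/6J;129 animals of both sexes that were 6 to 12 weeks old at the start. The labels give 2 libraries at day 1, 1 at day 3 and 1 at day 6. From which dose the days were counted is not settled by the sources used here. The fifth library was an untreated wildtype colon dissociated to enrich stroma, and its remaining epithelium served as the normal epithelium. No untreated tumor library was analysed here, so the levels below compare days of treatment and cell types. The study treats the day 1 pair as biological replicates of early treatment and days 3 and 6 as those of late treatment. The labels do not tie a library to an animal, and the sources used here do not give the number of tumors in each. P-values below thus cover only these libraries. They rest on a spread between libraries that is partly shared over genes, and in the neutrophil comparison wholly shared.

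The colonic epithelium keeps bacteria at a distance with secreted lectins, iron-binding proteins, oxidants and antibody. Reg3b and Reg3g encode C-type lectins that bind and kill bacteria, and Dmbt1 encodes a mucosal scavenger protein that aggregates them. Saa1 and Saa3 encode acute-phase apolipoproteins, Lcn2 (lipocalin 2) captures bacterial siderophores, and Ltf (lactoferrin) binds iron directly. Duox2 encodes a dual oxidase that makes hydrogen peroxide at the apical membrane, Duoxa2 encodes the maturation factor that carries it there, and Pigr encodes the receptor that transports IgA into the lumen. Cytokines such as IL-22 and IL-17 are known inducers of several of these genes, in part through STAT3, NF-kB and C/EBP transcription factors.

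Several of these genes lie beside a relative or partner, and the sequences upstream of their starts are shown for those 3 pairs so that neighbours can be set side by side. Saa1 and Saa3 parted by cell type in these cells, whereas the columnar levels of Duox2 and Duoxa2 ranked the libraries alike. In goblet and Paneth cells Duox2 was above its columnar level, and Duoxa2 was not told apart from its own. RefSeq windows were found for 9 of the 10 genes (GRCm38.p6). Each line gives the 250 bases before the start used for that gene, 5′ to 3′ on the gene's strand. Capitals mark letters that match the STAT form TTCNNNGAA, the C/EBP form TTNNGNAA or an NF-kB form (GGGA, any 4 bases, CC) on either strand. For Duox2, Saa1 and Saa3 the start used lies inside the annotated gene, whose upstream end is at 122298740, 46743181 and 46719615. Duox2 and Duoxa2 are read in opposite directions, and the starts used here lie 673 bases apart.
Duox2 (chr2:122298228-122298477, minus strand): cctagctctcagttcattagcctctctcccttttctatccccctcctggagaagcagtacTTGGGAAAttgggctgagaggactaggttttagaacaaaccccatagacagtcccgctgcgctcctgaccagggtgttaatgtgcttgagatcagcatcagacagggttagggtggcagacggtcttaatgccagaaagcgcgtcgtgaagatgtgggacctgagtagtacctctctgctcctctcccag
Duoxa2 (chr2:122298650-122298899, plus strand): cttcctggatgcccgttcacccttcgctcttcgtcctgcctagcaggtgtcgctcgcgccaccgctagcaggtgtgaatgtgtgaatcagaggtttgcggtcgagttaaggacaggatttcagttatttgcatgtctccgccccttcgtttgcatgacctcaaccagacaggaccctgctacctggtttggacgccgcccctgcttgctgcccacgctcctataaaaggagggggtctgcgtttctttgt
Saa1 (chr7:46742981-46743230, minus strand): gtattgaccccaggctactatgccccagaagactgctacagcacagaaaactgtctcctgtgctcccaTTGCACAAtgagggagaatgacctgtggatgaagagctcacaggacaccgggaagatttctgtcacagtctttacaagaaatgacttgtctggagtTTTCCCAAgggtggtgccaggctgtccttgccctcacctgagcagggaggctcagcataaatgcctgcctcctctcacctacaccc
Saa3 (chr7:46715677-46715926, minus strand): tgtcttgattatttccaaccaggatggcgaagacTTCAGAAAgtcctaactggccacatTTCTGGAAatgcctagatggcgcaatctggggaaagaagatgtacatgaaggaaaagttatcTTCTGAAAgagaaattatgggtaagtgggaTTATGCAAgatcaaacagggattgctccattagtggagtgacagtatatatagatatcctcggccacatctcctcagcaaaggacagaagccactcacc
Reg3b (chr6:78370635-78370884, plus strand): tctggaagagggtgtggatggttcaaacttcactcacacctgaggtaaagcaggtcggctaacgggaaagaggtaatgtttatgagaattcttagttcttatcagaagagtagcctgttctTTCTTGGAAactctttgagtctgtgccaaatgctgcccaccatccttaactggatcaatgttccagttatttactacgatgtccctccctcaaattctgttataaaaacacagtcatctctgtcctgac
Reg3g (chr6:78468875-78469124, minus strand): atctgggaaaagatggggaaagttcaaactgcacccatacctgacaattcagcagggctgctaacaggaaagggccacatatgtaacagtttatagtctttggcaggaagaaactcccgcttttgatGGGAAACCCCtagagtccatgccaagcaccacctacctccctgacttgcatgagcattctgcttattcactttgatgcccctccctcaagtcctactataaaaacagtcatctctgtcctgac
The Duox2 window held 1 C/EBP match, and the Duoxa2 window held none of the 3 forms. The Saa1 window held 2 C/EBP matches and the Saa3 window 4, and the 2 starts used here lie 27304 bases apart. The Reg3b window held 1 STAT match and the Reg3g window 1 NF-kB match. Their starts lie 97989 bases apart, and the longest identical stretch of the 300-base windows was 29 bases. The forms can overlap in a sequence, and a match is a description of the letters only. Over 32851 mouse promoter windows of 300 bases, 8.30% held the STAT form, 40.7% the C/EBP form and 20.7% the NF-kB form.

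Unique molecular identifier (UMI) totals ran from 5132360 to 16904947 per library and median UMIs per kept cell from 2903 to 3601. Cells were clustered without the 10 genes and named from marker lists, so that "columnar" below means columnar-like and likewise for the other types. The tumor libraries held 278, 1258, 890 and 1380 columnar cells and 54, 185, 290 and 729 squamous cells (day 1 replicate 1, day 1 replicate 2, day 3 and day 6, in that order throughout), and the normal colon held 332 columnar cells. The columnar cells of different libraries sat largely in different clusters, and 110 cell barcodes were kept in more than 1 tumor library. Types are those of clustering resolution 1. With finer clusters (resolution 2) a cluster of 175 cells, 165 of them from day 1 replicate 1, was named columnar. In that library goblet and Paneth cells went from 234 to 69 and columnar cells from 278 to 444. Goblet and Paneth levels of day 1 replicate 1 below thus depend on the naming. Levels are UMI counts summed over the cells of a type and scaled to CPM (parts in 1000000 of all their UMIs), read from transcript ends and so not corrected for length. They are set beside the level in lymphoid and blood endothelial cells of the same library, cells that should lack epithelial transcripts, called the free RNA level below. By that measure the day 3 library stood apart. The summed columnar markers reached 69.1% of their columnar level in its lymphoid and blood endothelial cells, against 26.1%, 26.7% and 29.9% in the other tumor libraries and 4.02% in the normal colon. Only 1 of 11 columnar markers was at least 2-fold above the free RNA level in day 3 columnar cells, against 9, 11 and 10 in the other tumor libraries, whereas 15 or 16 of 16 squamous markers were in every tumor library. One cluster of 676 columnar cells, 628 of them from day 3, lay nearest to the free RNA level. Counting intervals and limits below cover counting error only.

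**Figure D1:**
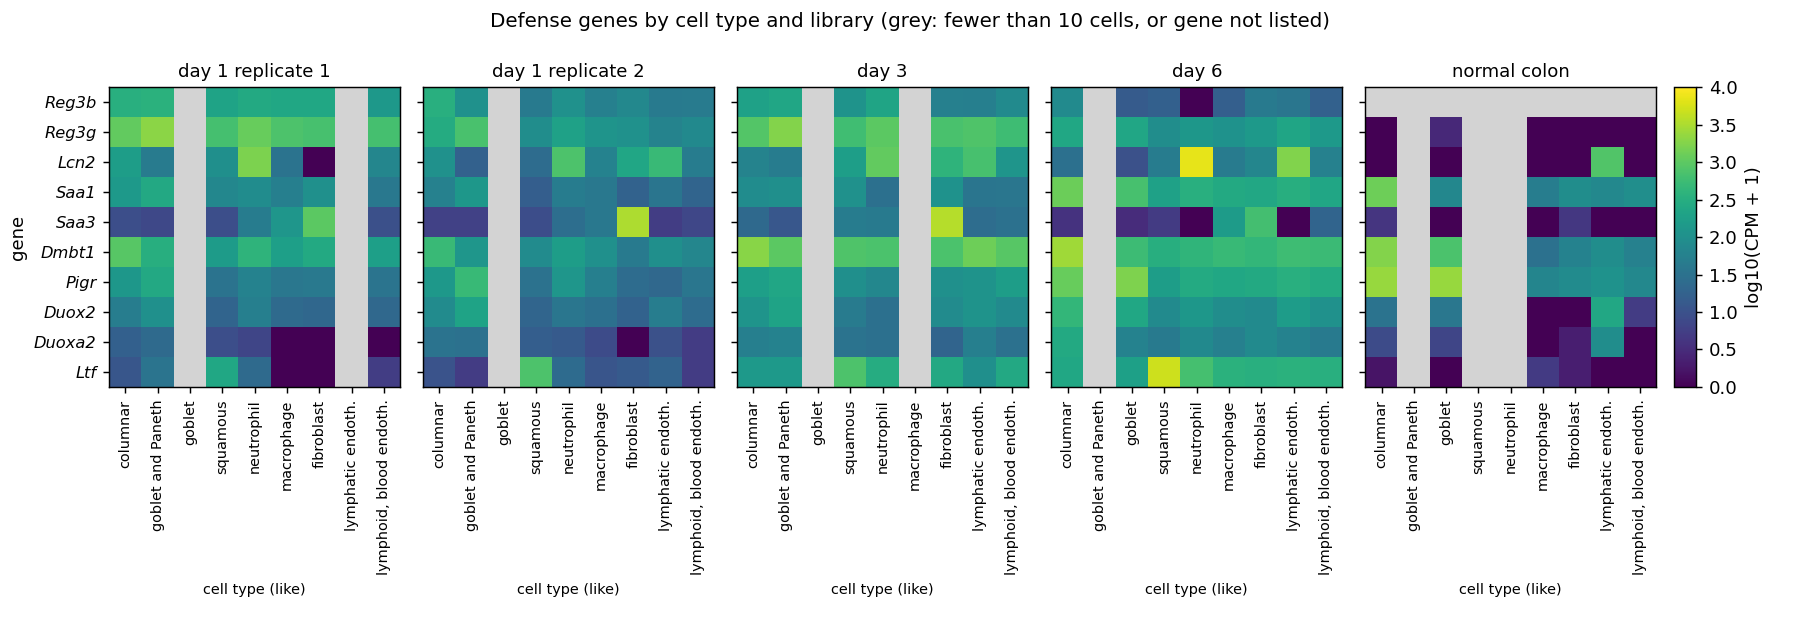
Heat maps of the 10 genes (rows) in 9 cell types (columns) for each of the 5 libraries, coloured by log10(CPM + 1) of summed UMIs. In the tumor libraries Ltf was highest in squamous cells, Lcn2 in neutrophils, Saa3 in fibroblasts and Dmbt1 in columnar cells, and grey marks types with fewer than 10 cells or a gene that is not listed.

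The antibacterial lectins and the scavenger Dmbt1 stood above the free RNA level in columnar cells of every tumor library. Of these, only Dmbt1 was also called higher in columnar cells than in neutrophils. Dmbt1 was highest in columnar cells in all 5 libraries, at higher levels at days 3 and 6 than at day 1. Reg3b was at its lowest at day 6, and Reg3g followed the library more than the day. In the normal colon Reg3b was not listed, and Reg3g had 2 UMIs in all kept cells, none of them in columnar cells.

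Dmbt1 stood at 906 and 513 CPM in the columnar cells of the 2 day 1 libraries, 1939.7 CPM at day 3, 2681 CPM at day 6 and 1809 CPM in the normal colon. The free RNA level was 179, 67.5, 910, 540 and 56.9 CPM in the same order, so columnar cells exceeded it 5.05-fold, 7.60-fold, 2.13-fold, 4.97-fold and 31.8-fold. Columnar cells held between 81.0% and 91.8% of all Dmbt1 UMIs of a library. After each cell was thinned to 1000 UMIs, 30.2% and 23.3% of columnar cells at day 1, 59.4% at day 3, 76.7% at day 6 and 74.5% in the normal colon had a Dmbt1 UMI, against 13.8%, 7.45%, 36.1%, 43.3% and 3.48% of lymphoid and blood endothelial cells. At day 6, 1247 of 1380 columnar cells and 307 of 314 of the others reached 1000 UMIs, in the normal colon 325 of 332 and 115 of 125, and elsewhere all did. Unthinned shares were 69.8%, 52.5%, 84.9%, 86.4% and 90.7% in columnar cells at median depths of 7160, 5513.5, 3118, 2061 and 6025.5 UMIs, and 62.1%, 25.5%, 73.8%, 69.7% and 16.8% in lymphoid and blood endothelial cells at 4291, 3714.5, 3964, 2106 and 2401 UMIs. The thinned share of columnar cells exceeded that of the lymphoid and blood endothelial cells in each library, most widely in the normal colon.

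Reg3b stood at 328 CPM in the columnar cells of each day 1 library, 192 CPM at day 3 and 79.7 CPM at day 6, each at least 2.39-fold above the free RNA level of 137, 45.0, 80.3 and 16.3 CPM. The day 1 levels were thus the higher ones. Within day 1 replicate 2 the gene was concentrated, with 93.9% of its columnar UMIs in the 10% of cells that held most. Reg3g stood at 1095, 288, 846 and 243 CPM over a free RNA level of 657, 77.7, 580 and 145 CPM. Its early and late levels overlapped, and its free RNA level was high in the same 2 libraries, day 1 replicate 1 and day 3, that share the single-index library structure. Reg3g was higher in the goblet and Paneth cells of the 3 libraries that held enough of them, at 1993, 720 and 1840 CPM. The first of these levels depends on the naming at resolution 1. Neutrophils were not told apart from columnar cells in either lectin. The neutrophil difference was -0.56 ± 0.37 (log2, SE, edgeR adjusted p = 0.339) for Reg3b and -0.03 ± 0.34 (edgeR adjusted p = 0.967) for Reg3g. In normal columnar cells the absence of a Reg3g UMI allows a level of up to 0.956 CPM.

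**Figure D2:**
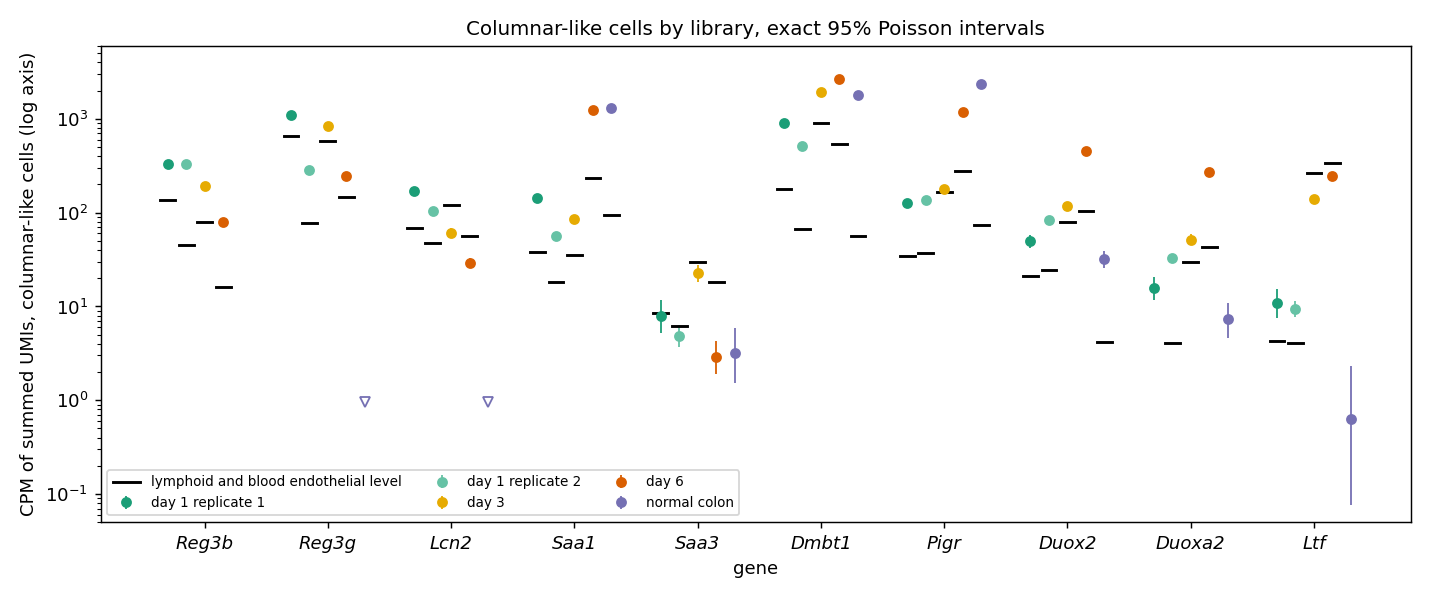
CPM of summed UMIs in columnar cells on a log axis for each gene and library, with exact 95% Poisson intervals as error bars, black dashes at the level in lymphoid and blood endothelial cells of the same library where that was above 0, and open triangles at the limit that a count of 0 allows. Dmbt1, Pigr, Saa1, Duox2 and Duoxa2 were highest among the tumor libraries at day 6, whereas Saa3 in the tumor libraries and Ltf and Lcn2 at days 3 and 6 lay below the dashes.

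The acute-phase genes Saa1 and Saa3 parted by cell type. Saa1 was abundant in columnar cells at day 6 and in the normal colon, and Saa3 was at or under the free RNA level in tumor columnar cells. In the normal colon 10 of the 13 Saa3 UMIs were in columnar cells. Saa1 stood at 143, 55.8, 86.1, 1254 and 1318 CPM in columnar cells of the 4 tumor libraries and the normal colon. The free RNA level of Saa1 was 38.4, 18.4, 35.7, 235 and 94.9 CPM, so that columnar cells were 2.41-fold to 5.33-fold above it in the tumors and 13.9-fold in the normal colon. Day 6 was the only tumor library near the normal level. Goblet and Paneth cells held Saa1 at 255, 132 and 96.3 CPM in the 3 libraries with enough of them, the first as named at resolution 1. This was above the columnar level at day 1 and, at day 3, had an interval of 69.7 to 129.7 CPM that covers it. At day 6 and in the normal colon the goblet level was below the columnar one, at 687 and 70.7 CPM. Saa1 and its neighbour Saa2 share 73 identical bases in the last 400 bases of their transcripts, so reads could be split between them and the Saa1 count is uncertain by that much. Saa3 stood at 8.01, 4.88, 22.5 and 2.91 CPM in tumor columnar cells against a free RNA level of 8.54, 6.13, 29.8 and 18.2 CPM. Tumor columnar cells were below the free RNA level of Saa3 in all 4 libraries. At day 1 that level rested on a few UMIs per library, so no difference can be read there. The highest Saa3 level was in fibroblasts, with 977 CPM (95% interval 720.3 to 1295) in 14 cells, 3231 CPM (3007 to 3468) in 39 cells, 3612 CPM (3263 to 3987) in 30 cells and 630.01 CPM (514 to 765) in 56 cells. Few fibroblasts held it, and the 10% with the most carried between 59.5% and 99.0% of their Saa3 UMIs. The 324 normal fibroblasts had 3 Saa3 UMIs, or 3.40 CPM.

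The iron-binding genes Lcn2 and Ltf were each highest outside the bulk of the columnar cells. Lcn2 was highest in neutrophils, and columnar cells held it at up to 2.49-fold the free RNA level at day 1 and below it later. Ltf was highest in squamous cells. Neither was more than a trace in normal columnar cells.

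Lcn2 stood at 170.1, 104, 61.3 and 29.2 CPM in tumor columnar cells, with a free RNA level of 68.3, 47.0, 122 and 56.5 CPM. Both day 1 libraries were above their free RNA level and days 3 and 6 were below it. Neutrophils, which store lipocalin in their granules, held 1650.4, 761, 1109.8 and 6989 CPM in 71, 399, 28 and 24 cells. Their share of all Lcn2 UMIs was 30.7%, 32.7%, 10.6% and 22.0%, beside 57.3%, 54.0%, 36.2% and 20.3% in the more numerous columnar cells. Lymphatic endothelial cells also held it, at 515, 690 and 1748 CPM at day 1 replicate 2, day 3 and day 6 and 812 CPM in the 21 such cells of the normal colon. In the 332 normal columnar cells there was no Lcn2 UMI, which allows up to 0.956 CPM.

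Ltf stood at 239 CPM (95% interval 192 to 294), 755 CPM (703 to 810.1), 769 CPM (719 to 821) and 5022 CPM (4957 to 5087) in squamous cells. The free RNA level of Ltf was 4.27 and 4.09 CPM at day 1, from a few UMIs or fewer each, and 262 and 338 CPM at days 3 and 6. Columnar cells held 10.9, 9.49, 141 and 244 CPM. Squamous cells were thus above both in every library, and columnar cells at days 3 and 6 were below the free RNA level. Squamous cells held 57.1%, 82.7%, 51.7% and 88.6% of all Ltf UMIs. After thinning to 1000 UMIs, 3.70%, 10.3%, 35.2% and 49.2% of squamous cells had an Ltf UMI, against 0%, 1.06%, 21.3% and 34.2% of lymphoid and blood endothelial cells. At day 6, 706 of 729 squamous cells reached 1000 UMIs, and the unthinned shares were 12.96%, 16.8%, 61.7% and 76.1% of squamous cells at median depths of 4677.5, 2573, 3133.5 and 5654 UMIs, beside 3.45%, 2.13%, 57.4% and 60.5% of lymphoid and blood endothelial cells at the depths given for Dmbt1. The 0 of 29 thinned cells at day 1 replicate 1 allows a share of up to 11.9% (exact binomial limit). Most of the squamous Ltf RNA came from few cells, with 10% of the cells holding 97.8%, 98.3%, 63.5% and 73.1% of it.

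Among tumor columnar cells, the oxidase Duox2, its partner Duoxa2 and the IgA receptor Pigr were highest at day 6. In the earlier libraries goblet and Paneth cells held them at similar or higher levels, and at day 6 goblet cells held more Pigr. Duox2 stood at 49.3, 82.6, 117 and 451 CPM in tumor columnar cells and 31.9 CPM in normal ones, over a free RNA level of 21.3, 24.5, 80.3, 105 and 4.22 CPM. Duoxa2 stood at 15.7, 32.6, 51.4 and 271 CPM, and at 7.33 CPM in normal columnar cells. Its free RNA level was 0, 4.09, 29.8, 43.1 and 0 CPM, of which the first 0 allows up to 12.8 CPM and the last up to 6.33 CPM. Both genes of the pair had their highest level at day 6 and their lowest in the normal colon. Pigr stood at 128, 136, 179.9 and 1176 CPM in tumor columnar cells and at 2385 CPM in normal columnar cells. The free RNA level of Pigr was 34.2, 36.8, 167, 276 and 73.8 CPM, so that day 3 columnar cells did not stand out from it at 1.08-fold. Goblet and Paneth cells held Pigr at 258, 498 and 228 CPM and Duox2 at 99.5, 207 and 210.4 CPM in the day 1 and day 3 libraries, above the columnar level in each (in day 1 replicate 1 as named at resolution 1). Their Duoxa2 level was 22.96, 30.3 and 58.2 CPM, with intervals that cover the columnar level. The goblet cells of day 6 held more Pigr than columnar cells, at 1656 CPM, and less Duox2 and Duoxa2, at 236 and 58.5 CPM. In the normal colon goblet Pigr, at 2395 CPM, was close to the columnar level. The 21 lymphatic endothelial cells of the normal colon had 14 Duox2 UMIs, or 252 CPM (95% interval 138 to 424), which was above the columnar level of that library.

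Levels by day were compared between early treatment (both day 1 libraries) and late treatment (days 3 and 6), the grouping the study used. Dmbt1, Pigr, Duox2, Duoxa2 and Ltf were higher in the columnar cells of both late libraries than of both early ones, and Reg3b and Lcn2 were lower in both. No gene passed the adjusted threshold of 0.05. The quasi-likelihood test of edgeR called 0 of 13535 genes (0%), although 2276 had an unadjusted p under 0.05, and DESeq2 called 661 genes, 6 of the 10 among them, all higher late. The 5 genes without overlap upwards and 2 downwards stand beside 24.1% of all genes tested with both late libraries above and 26.5% with both below. The 2 of 10 below were near that background share.

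In columnar cells the late minus early difference in Dmbt1 was 2.12 ± 0.55 (log2, SE, 2 libraries against 2; edgeR adjusted p = 0.201). It was 2.56 ± 0.73 for Duox2 (edgeR adjusted p = 0.207) and 3.18 ± 0.87 for Duoxa2 (edgeR adjusted p = 0.204), the oxidase and its partner. For Pigr it was 2.82 ± 0.90 (edgeR adjusted p = 0.230) and for Saa1 3.21 ± 1.24 (edgeR adjusted p = 0.279). The difference was not called for any of these 5 genes in this fit. Each library structure, single or dual index, holds 1 early and 1 late library, and with the structure as a block edgeR called 544 genes (4.02%) and 4 of the 10, all higher late. These were Dmbt1 at 2.15 (edgeR adjusted p = 0.0491), Duox2 at 2.27 (0.0304), Duoxa2 at 2.84 (0.0199) and Ltf at 4.64 (0.00419), while Pigr (0.0888) and Saa1 (0.312) were not called. Within the dual-index libraries, day 6 exceeded day 1 replicate 2 by 2.88 for Dmbt1, 3.60 for Pigr, 2.93 for Duox2, 3.50 for Duoxa2 and 4.96 for Saa1. Within the single-index libraries, day 3 exceeded day 1 replicate 1 by 1.42, 0.81, 1.55 and 1.96 for the first 4, and the Saa1 difference was -0.41. Both pairs thus showed the same direction for Dmbt1, Pigr, Duox2 and Duoxa2 and opposite directions for Saa1, with 1 library on each side of a pair. The free RNA level of Dmbt1, Pigr, Duox2 and Duoxa2 was also higher in both late libraries, and its part in these differences was not tested.

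Ltf showed the largest late minus early difference of the 10 genes in columnar cells, 4.67 ± 0.49 (edgeR adjusted p = 0.101), or 5.02 within the dual-index and 3.89 within the single-index libraries. Its level there stayed below the free RNA level at days 3 and 6, which itself stood at 262 and 338 CPM against 4.27 and 4.09 CPM at day 1. Lcn2 was lower late, by -1.22 ± 0.48 (edgeR adjusted p = 0.283), and by -1.32 and -1.14 within the library structures. Without the day 3 library, edgeR called 8 of the 10 genes, 6 higher and 2 lower late, with the lone day 6 library assumed to vary like the others. Without the day 6 library it called 2. Calls in this comparison thus turned on which single late library was kept.

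In squamous cells Dmbt1, Pigr, Saa1, Duox2, Duoxa2 and Ltf were higher in both late libraries, and edgeR again called 0 of 9787 genes (0%), with 388 at an unadjusted p under 0.05 and 15 called by DESeq2. With coarser clusters (resolution 0.5) the Saa1 difference turned to -0.36, as its day 1 squamous levels became 334 and 73.2 CPM, and the number of the 10 genes with an unadjusted p under 0.05 went from 6 to 2. With the library structure as a block edgeR called 2 genes (0.0204%), none of the 10 among them. Of the 9 genes with enough counts to test (Saa3 was not), 6 lay above without overlap beside 16.2% of all genes tested, and 0 lay below beside 15.5%. The late minus early difference was 2.62 ± 0.97 for Ltf (log2, SE, edgeR adjusted p = 1.00), and 2.77 and 1.93 within the dual- and single-index libraries. For Pigr it was 2.19 ± 0.51 (edgeR adjusted p = 0.925). The squamous levels of Dmbt1 were 158, 83.6, 783 and 326 CPM, of which all but day 1 replicate 2 were below the free RNA level. Late squamous Pigr, at 98.1 and 166 CPM, was below the free RNA level as well. Of the genes higher late in squamous cells, Ltf was the one at least 2-fold above the free RNA level in every library.

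Epithelial types of the same libraries were then compared with the library as a block, which asks where each gene sits when the day is held fixed. Ltf was the 1 gene of the 10 that was higher in squamous cells, and 6 genes were lower there. These 7 calls stand beside 2286 of 13495 genes called (16.9%). Ltf was higher by 4.38 ± 0.60 (log2, SE, 4 libraries, edgeR adjusted p = 0.00176) in squamous than in columnar cells, and higher in 4 of 4 libraries. Dmbt1 was lower by -2.34 ± 0.31 (edgeR adjusted p = 0.00148), with squamous levels of 158, 83.6, 783 and 326 CPM under columnar levels of 906, 513, 1939.7 and 2681 CPM. Pigr, the IgA receptor, was lower by -1.94 ± 0.34 (edgeR adjusted p = 0.00538), with 32.2, 31.1, 98.1 and 166 CPM in squamous cells. Duox2 was lower by -1.91 ± 0.28 (edgeR adjusted p = 0.00243), with 18.8, 19.4, 44.8 and 79.6 CPM in squamous cells. All 3 genes were lower in 4 of 4 libraries. Of all 13495 genes tested, 3016 were lower and 2060 higher in squamous cells of 4 of 4 libraries. With coarser clusters (resolution 0.5) Duox2 and Pigr were not called, at -1.05 (edgeR adjusted p = 0.225) and -1.56 (edgeR adjusted p = 0.0572), and Dmbt1 was called in all 12 alternatives.

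Duoxa2 was lower in squamous cells by -1.53 ± 0.41 (edgeR adjusted p = 0.0332), with 8.05, 14.6, 32.7 and 43.1 CPM there, and Reg3b by -1.63 ± 0.39 (edgeR adjusted p = 0.0195), with 207, 41.8, 112 and 15.7 CPM. Reg3g was lower by -1.04 ± 0.24 (edgeR adjusted p = 0.0169), with 665, 90.4, 596 and 90.02 CPM. Each of these 3 calls was lost when 1 library was left out. Without day 1 replicate 1 the adjusted p was 0.0938 for Duoxa2 and 0.0608 for Reg3g, without day 1 replicate 2 it was 0.0708 for Duoxa2, 0.0854 for Reg3b and 0.0774 for Reg3g, and without day 6 it was 0.0953 for Duoxa2, whose difference then came to -0.74. At resolution 0.5 Duoxa2 was not called either (edgeR adjusted p = 0.389). Saa1 was lower by -1.33 ± 0.47 and did not pass (edgeR adjusted p = 0.0900). The squamous levels of Saa1 were 69.7, 14.6, 103 and 192 CPM, and at resolution 0.5 the difference changed sign to 0.0925. The squamous levels of Lcn2 were 96.6, 25.3, 175 and 47.2 CPM and those of Saa3 8.05, 7.77, 46.5 and 3.91 CPM, neither of which passed the test.

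**Figure D3:**
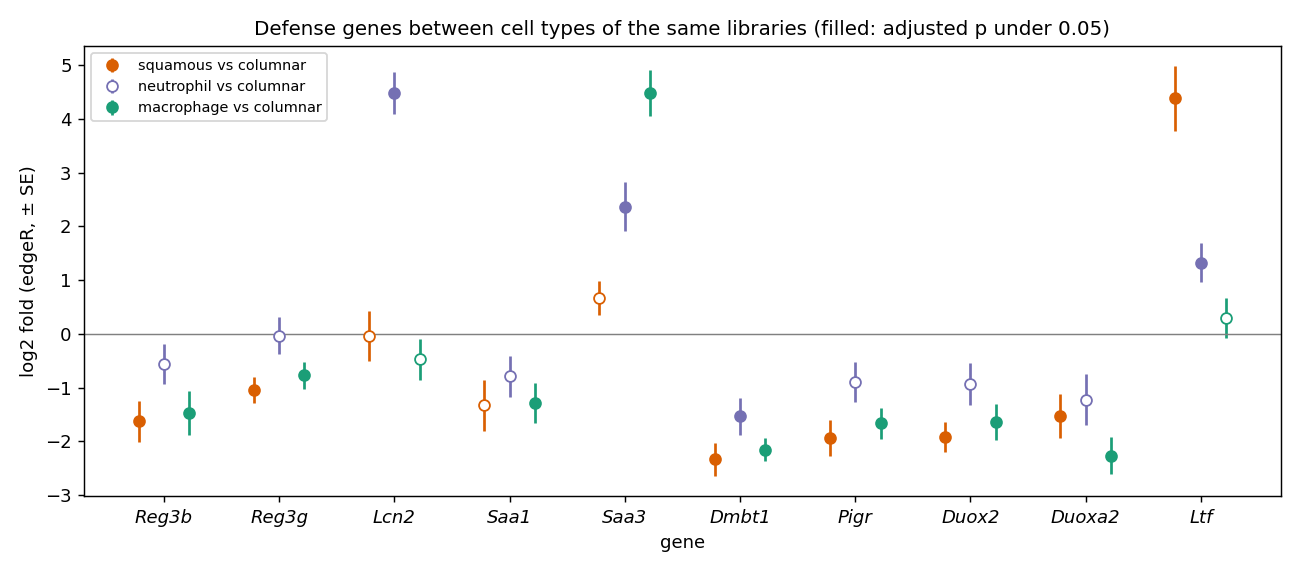
Log2 fold of each gene in squamous cells, neutrophils and macrophages over columnar cells of the same libraries, with SE bars from edgeR and filled points where the adjusted p was under 0.05. Ltf stood alone above 0 among the called squamous differences at 4.38, Lcn2 led the neutrophil differences at 4.49 and Saa3 the macrophage differences at 4.48.

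Myeloid cells were compared with columnar cells in the same way. Neutrophils were higher in Lcn2, Saa3 and Ltf and lower in Dmbt1, and macrophages were higher in Saa3 and lower in 7 of the others. The neutrophil calls stand beside 2011 of 12391 genes (16.2%) and the macrophage calls beside 3423 of 12068 genes (28.4%). Day 3 held only 6 macrophages and is left out of that fit.

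Lcn2 was higher in neutrophils by 4.49 ± 0.39 (log2, SE, 4 libraries, edgeR adjusted p = 5.66e-29), and the neutrophil level exceeded the free RNA level 24.2-fold, 16.2-fold, 9.10-fold and 124-fold. The neutrophil fit shared the spread between libraries over all genes, so its SE and p-values do not measure the spread of a single gene. Scaled as in the fit, Lcn2 stood at 1900, 882, 1015 and 6903 CPM in neutrophils. In columnar cells it stood at 143, 85.8, 66.5 and 33.8 CPM, so the difference was widest at day 6. Ltf, another granule protein of neutrophils, was higher by 1.32 ± 0.36 (edgeR adjusted p = 0.00298) at 23.2, 24.1, 299 and 668 CPM. The free RNA level of Ltf was 262 CPM at day 3, so neutrophils exceeded it 1.14-fold there and 1.98-fold at day 6, and without day 1 replicate 2 the call was lost (edgeR adjusted p = 0.125). Saa3 was higher by 2.36 ± 0.46 (edgeR adjusted p = 4.06e-06) at 46.3, 27.3 and 42.7 CPM, and none of the 24 neutrophils at day 6 had a UMI, which allows up to 77.1 CPM. Without day 1 replicate 2 the adjusted p of Saa3 was 0.205. Dmbt1 was lower by -1.53 ± 0.35 (edgeR adjusted p = 0.000137) at 400, 170 and 726 CPM in the day 1 and day 3 libraries and 411 CPM at day 6.

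In macrophages Saa3 was higher by 4.48 ± 0.43 (log2, SE, 3 libraries, edgeR adjusted p = 2.31e-05), with 127, 39.7 and 153 CPM at day 1 replicate 1, day 1 replicate 2 and day 6 and no UMI in 70 normal macrophages, which allows up to 11.3 CPM. These levels were 14.8-fold, 6.47-fold and 8.43-fold the free RNA level, the first 2 only roughly, as few UMIs made up that level at day 1. They came from few cells, with an Saa3 UMI in 2.13%, 4.29% and 5.33% of thinned macrophages (4.26%, 8.57% and 9.21% unthinned), beside 3.45%, 1.06% and 0.651% of thinned lymphoid and blood endothelial cells (6.90%, 3.19% and 1.27% unthinned). Macrophage median depths were 3604, 4734.5 and 3581.5 UMIs, beside 4291, 3714.5 and 2106 UMIs. Dmbt1, Duox2, Duoxa2 and Pigr were lower in macrophages by between -2.27 and -1.64, with edgeR adjusted p from 3.75e-05 to 0.00397. Reg3b, Reg3g and Saa1 were lower with edgeR adjusted p of 0.0224, 0.0403 and 0.0252, and each lost the call when 1 library was left out. Without day 1 replicate 2 the adjusted p was 0.116 for Reg3b and 0.219 for Reg3g, without day 1 replicate 1 it was 0.0556 for Saa1 and without day 6 it was 0.176 for Saa1.

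The RNA of the dual oxidases differed in opposite directions between the epithelia. Duox1 and Duoxa1, the second dual oxidase and its maturation factor, were higher in squamous cells, whereas Duox2 and Duoxa2 were lower. The calls of Duox2 and Duoxa2 were lost with coarser clusters, and that of Duoxa2 also when single libraries were left out. Squamous Duox2 lay below the free RNA level in every tumor library. It exceeded squamous Duox1 at days 3 and 6 but not at day 1. Whether one oxidase replaced the other in squamous cells was not tested. Duox1 stood at 1.28, 2.35, 1.38 and 3.61 CPM in columnar cells and at 34.9, 39.8, 15.5 and 44.1 CPM in squamous cells, a difference of 3.92 ± 0.34 (log2, SE, edgeR adjusted p = 0.000307). Duoxa1 stood at 1.28, 3.13, 9.64 and 7.10 CPM in columnar cells and at 91.2, 112, 68.0 and 51.3 CPM in squamous cells, a difference of 3.96 ± 0.56 (edgeR adjusted p = 0.00201). Both were higher in squamous cells of 4 of 4 libraries, as were 2060 of all 13495 genes tested. They were named as the largest rises of the list of NADPH oxidase and nitric oxide genes, in which 2 of 10 genes tested were higher and 4 lower in squamous cells, with a median of -0.84 beside -0.08 over all genes. Of those lower, Nos2, the inducible nitric oxide synthase, had a difference of -2.70 and Noxa1, an activator of Nox1, of -2.30. Nos2 in columnar cells stood at 3.84, 3.48 and 4.59 CPM in the day 1 and day 3 libraries and at 199.7 CPM at day 6.

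**Figure D4:**
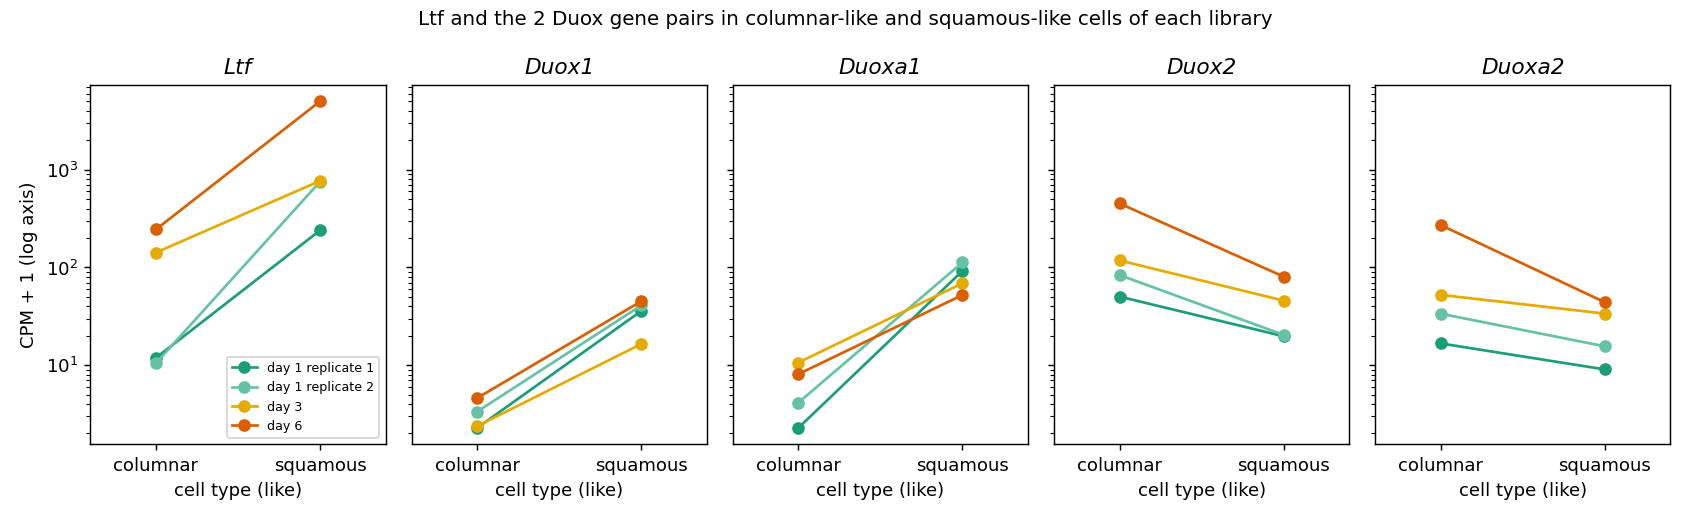
CPM + 1 on a log axis for Ltf and the Duox1 and Duoxa1, Duox2 and Duoxa2 pairs in columnar and squamous cells, with 1 line per tumor library. Lines rose towards squamous cells for Ltf, Duox1 and Duoxa1 and fell for Duox2 and Duoxa2 in all 4 libraries.

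Other genes of the defense program were counted by list. Of 17 other epithelial defense genes, 2 were higher and 6 lower in squamous than in columnar cells, with a median of -0.08 (all genes -0.08). Defb1, a defensin, was higher by 4.68 and Wfdc2, a secreted protease inhibitor, by 1.27, while complement factor Cfb was lower by -2.02 and Lypd8, an epithelial protein that holds back flagellated bacteria, by -1.82. Of 18 receptors and signalling genes, 3 were higher and 1 lower with a median of 0.12, among them Il6ra at 1.99 and the oncostatin M receptor Osmr at 1.247, with Il10rb, a chain of the IL-22 receptor, at -0.996. None of 4 inducing cytokines and none of 4 IgA genes were called, and 1 of 4 neutrophil granule genes was lower, Cd177 at -2.27. The cytokine, IgA and granule medians were -0.51, -0.72 and 0.14.

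In neutrophils all 4 inducing cytokines tested were higher than in columnar cells, led by Osm at 7.33 and Il1b at 6.64. Of 17 receptor and signalling genes 10 were higher, led by Il6ra and the IL-17 receptor Il17ra, and 1 was lower, Il1r1 at -1.78. Other defense genes were higher in 9 of 16, led by haptoglobin (Hp) and complement C3, NADPH oxidase genes in 4 of 10, led by the phagocyte subunits Ncf1 and Ncf4, and granule genes in 5 of 6, led by Ngp at 9.90 and Mmp8 at 7.71. One of 5 IgA genes was higher, the B cell cytokine Tnfsf13b at 2.18. This rise rests on low levels in the day 1 libraries, at 5.79 and 11.5 CPM in neutrophils. The 28 and 24 neutrophils of days 3 and 6 had no Tnfsf13b UMI, beside 0.689 and 7.22 CPM in columnar cells. With so few neutrophils the direction at days 3 and 6 cannot be read. Medians were 4.08, 1.24, 1.04, 0.44, 7.57 and 0.66 for these 6 lists beside -0.17 over all genes.

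In macrophages all 5 inducing cytokines tested were higher, again led by Osm at 6.73 and Il1b at 6.68. Receptors were higher in 12 of 17 and lower in 3, with Osmr at -2.96 and Il1r1 at -1.70. Other defense genes were split, 4 higher and 4 lower of 16, with Hp and Tgm2 at the upper end and Lypd8 and Pla2g2a at the lower. Of 9 oxidase genes 5 were higher, led by Cybb at 7.23, and 1 lower, the glutathione peroxidase Gpx2. Of 5 IgA genes 1 was lower, the mucosal chemokine Ccl28 at -2.76. Granule genes were higher in 4 of 5, led by the serine protease Prtn3. Medians were 6.14, 1.35, 0.24, 1.53, -0.04 and 5.31 for these 6 lists beside -0.10 over all genes.

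Between late and early libraries no gene of these 6 lists was called in columnar or in squamous cells. In columnar cells 6 of 18 receptor and signalling genes, 6 of 17 other defense genes and 2 of 11 oxidase genes had an unadjusted p under 0.05, beside 16.8% of all genes tested, with medians of 0.63, 0.73 and 0.78 beside 0.02. The oxidase count was near that share. In squamous cells the counts were 0 of 17, 6 of 16 and 1 of 6 beside 3.96%, with medians of 0.24, 0.48 and -0.18 beside 0.03.

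Columnar cells were not of one kind, and the defense genes divided them. A cluster led by Mt4, Wif1, Dkk2 and Nkd1, of which the last 3 are genes of Wnt signalling, carried the highest stem marker level, 3839, 3867, 3463 and 3696 CPM for the summed list, against at most 1323 CPM in any other columnar cluster. It held 156, 375, 22 and 16 cells. Lcn2 was higher in that cluster than in the other columnar cells of every library, at 252 against 33.3 CPM, 246 against 19.3 CPM, 174 against 57.9 CPM and 691 against 14.5 CPM. The reverse held for Dmbt1, at 129.6 against 2199.96 CPM, 66.2 against 782 CPM, 734 against 1976 CPM and 327 against 2733 CPM. So Lcn2 was higher in the stem marker cells and Dmbt1 in the rest, in each of 4 libraries. The cluster's Lcn2 was 3.69-fold, 5.22-fold, 1.42-fold and 12.2-fold the free RNA level, and at day 3 its 22 UMIs in 22 cells gave an interval of 108.8 to 263 CPM that covers the free RNA level of 122 CPM.

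Reg3b lay lower in the stem marker cluster too, at 124 against 668 CPM, 29.2 against 508 CPM, 94.7 against 195 CPM and 10.7 against 81.3 CPM. Duox2 stood there at 14.9 against 107 CPM, 22.7 against 119 CPM, 31.6 against 119.6 CPM and 75.0 against 459 CPM. Saa1 stood at 46.1 against 305 CPM, 15.04 against 80.4 CPM, 15.8 against 88.2 CPM and 198 against 1278 CPM. All 3 were lower in the cluster in each library. Some of these levels rest on few UMIs, such as 2 for Saa1 at day 3 and 2 for Reg3b at day 6. The clusters were formed without these 10 genes, and the values are given without a test.

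**Figure D5:**
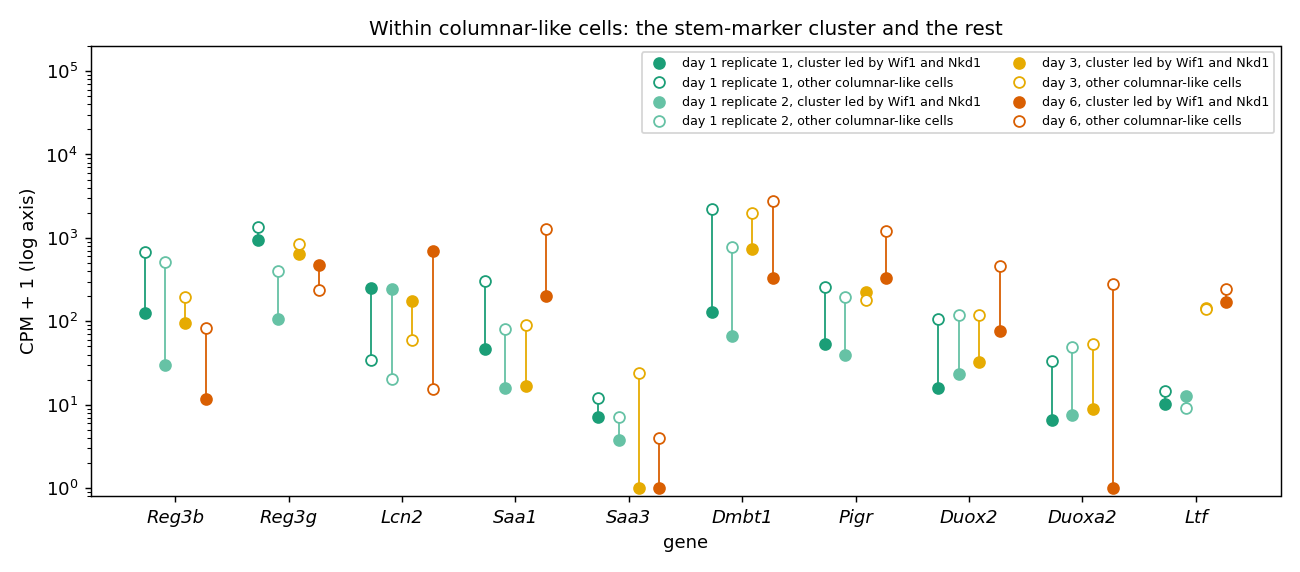
CPM + 1 on a log axis for each gene and tumor library, filled for the columnar cluster led by Wif1 and Nkd1 and open for all other columnar cells, joined by a line. Lcn2 was higher in the cluster in all 4 libraries, while Reg3b, Saa1, Dmbt1, Duox2 and Duoxa2 were lower in all 4.

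At day 6 a cluster of 246 columnar cells led by Ifit1bl1, Clca4b, Gbp2 and Ido1, several of them interferon-induced genes, held most of the Saa1 and Duox2 RNA. Saa1 stood at 3282 CPM there against 367 CPM in the other 1134 columnar cells, Duox2 at 1008 against 207 CPM and Duoxa2 at 665 against 98.1 CPM. Dmbt1 differed less, at 3931 against 2134 CPM, and Pigr was close in both, at 998 against 1254 CPM. No other library held more than 1 cell of this cluster. In the normal colon the 194 columnar cells led by Tgm3 and Car1, an enzyme of mature colonocytes, held Saa1 at 2463 CPM and Dmbt1 at 2597 CPM. The other 138, led by Clca3b and Nxpe2, held them at 56.9 and 941 CPM. Duox2 went the other way, at 4.26 against 62.3 CPM, and Pigr was even at 2385 against 2384 CPM. Saa1 and Duox2 were thus high in the same cells at day 6 and in different cells in the normal colon.

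Ltf divided the squamous cells in the same manner. In the cluster led by Psca and Krt6b, Ltf reached 2595 CPM in 17 cells at day 1 replicate 2 and 9365 CPM in 276 cells at day 6. The other squamous cells stood at 93.8 and 517 CPM in those libraries. In both, the cluster had the highest level of Krt13, a keratin of upper squamous layers, among the squamous clusters. Basal keratins were high there too, with the highest Krt14 at day 1 replicate 2 (30590 CPM) and the highest Krt5 at day 6 (6877 CPM). These keratins thus assign the cluster to no single layer. In the cluster led by Trp63 and Col17a1, genes of basal squamous cells, Ltf was 12.8, 18.5 and 250.2 CPM at day 1 replicate 1, day 1 replicate 2 and day 6, which at day 6 was below the free RNA level. A day 6 cluster led by Calm4 and Krt10 held 2696 CPM. At day 3, 285 of 290 squamous cells fell into 1 cluster, led by Dmkn, at 740 CPM.

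Finally, each gene was set against 13333 others over 39 sums of library and cell type in the tumors, as a description, since sums of 1 library share depth and free RNA. The gene most like Dmbt1 was Clca3b (Pearson r = 0.94), like Pigr Trim31 (0.90), like Saa1 Sycn (0.88) and like both Duox2 (0.91) and Duoxa2 (0.86) Lypd8. Lypd8 was also among the 3 closest to Saa1 and Pigr. Ltf was closest to Cbr2 (0.94) and next to the squamous keratin Krt5 (0.93) and Wfdc2 (0.91). Saa3 was closest to Ptges (0.90), Sod3 (0.88) and the collagen gene Col1a1 (0.88), and Lcn2 to G0s2 (0.81), Grina (0.79) and Chil1 (0.73). Reg3b was closest to Smoc2 (0.78), Sp5 (0.78) and Cyp2b10 (0.78), and Reg3g to Ndufb10 (0.86), Lamtor2 (0.85) and Fam178b (0.84). Muc3 and Thbs4 followed for Dmbt1 at 0.88 each, Tspan1 for Pigr at 0.86, Sprr2a2 and Prss32 for Duox2 at 0.84 each, and Duox2 and Sprr2a3 for Duoxa2 at 0.83 each.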

How the data were processed

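Cells had been encapsulated with the inDrop platform, which reads transcript ends. Per the study's methods the authors aligned and counted with dropEst against GRCm38, and deposited raw UMI counts per gene and barcode; barcodes outside their stated limits (500 genes, 15% mitochondrial) were still present and were removed here. The single-index libraries were sequenced on another instrument than the dual-index ones. Gene names of the normal colon table had been altered by R and 1172 were mapped back. Cells were clustered with scanpy 1.11.5 and Leiden (resolution 1) on 2000 variable genes without the 10 genes and the listed genes, and named from at least 3 markers at 2-fold, or at 1.25-fold against non-epithelial cells, a rule revised after clusters were seen. The marker and gene lists each lacked genes that are not used here, 3 among the gene lists. Counts were summed per library and type (at least 10 cells) and tested with edgeR 4.0.16 in R 4.3.3 (quasi-likelihood, TMM, filterByExpr, Benjamini-Hochberg), with the library as a block between types. The SE was the log2 fold divided by the root of the F statistic. DESeq2 1.42.0 was an alternative. Scaling to total counts in place of TMM moved the median log2 difference of all genes from 0.02 to -0.39 (columnar, late against early), 0.03 to -0.10 (squamous), -0.08 to -0.10 (squamous against columnar), -0.17 to -0.48 (neutrophil) and -0.10 to -0.31 (macrophage).

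The 10 genes, the lists and the tests were chosen with earlier results of these data known. Lymphoid and blood endothelial cells were taken as the free RNA level after fibroblasts and lymphatic endothelial cells were seen to hold Saa3 and Lcn2 of their own. The text names all 10 genes, up to 2 rises and 2 falls called per list and comparison, and the 3 genes most alike by log2(CPM + 10). Clusters named in the text were chosen after their values were seen. Doublets were scored with Scrublet. Scripts were tested on simulated counts.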

Additional observations from a re-analysis of the deposited data

Results flagged for a closer look

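Cell types outside the epithelial and myeloid comparisons held some of the 10 genes above the level in lymphoid and blood endothelial cells. Saa3 in fibroblasts stood at 977, 3231, 3612 and 630.01 CPM in the 4 tumor libraries. Lcn2 in lymphatic endothelial cells stood at 515, 690 and 1748 CPM at day 1 replicate 2, day 3 and day 6. Reg3g in goblet and Paneth cells stood at 1993, 720 and 1840 CPM at day 1 replicate 1, day 1 replicate 2 and day 3. The Duoxa2 difference between squamous and columnar cells had 1 library far from the rest, day 6, with a gap of 0.849 of the whole range over 4 libraries. Chance alone marks about 1 in 20 such groups.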

How the results depend on the processing

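With 2 libraries against 2, the number of the 10 genes called between late and early columnar cells depended on the setting, from 0 as reported to 6 with DESeq2, 6 without a filter on low counts and 4 with the library structure as a block, and from 0 to 8 when 1 library was left out (8 without day 3, 2 without day 6). In squamous cells it went from 0 to 2 without a filter, and from 0 to 1 when 1 library was left out (1 without day 3). For squamous against columnar cells it went from 7 to 4 at clustering resolution 0.5, where Duox2, Duoxa2 and Pigr were not called, and from 4 to 8 when 1 library was left out (4 without day 1 replicate 2). For neutrophils it went from 4 to 9 with scaling to total counts and to 8 without the cluster nearest to free RNA, both chosen after seeing the data. The macrophage count of 8 stayed between 6 and 8. Over all genes, the 0 calls in columnar cells became 661 (DESeq2), 1170 (no filter), 544 (structure block), 2177 without day 3 and 800 without day 6; in squamous cells 0 became 15 (DESeq2) and 94 (no filter). At resolution 0.5 the Saa1 difference reversed, to -0.36 between late and early squamous cells and to 0.0925 between squamous and columnar cells, as squamous Saa1 at day 1 stood at 334 and 73.2 CPM there in place of 69.7 and 14.6 CPM. Thinning to 1000 UMIs ended the calls of Ltf in neutrophils (adjusted p = 0.208, edgeR) and of Reg3g in squamous cells (adjusted p = 0.0638, edgeR). Cells changed type at resolution 0.5, where day 1 replicate 2 held 932 columnar and 511 squamous cells in place of 1258 and 185. Day 1 replicate 1 held 59 squamous cells in place of 54. The part of these moves in the changes at that resolution, and the cause of the other changes, were not tested. Changes with an unadjusted p of 0.05 or more were not followed across settings. The titles of the late libraries carry no replicate number, so the labels match no early library with a late one. The block by library structure was the paired fit that could be made.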
